A study of Mus musculus with 3 samples.

Results

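Glycolysis and lactate metabolism were followed here through 10 genes chosen by name: Slc2a1, Aldoa, Aldoc, Tpi1, Gapdh, Pgk1, Eno1, Pkm, Ldha and Ldhb, out of the 16178 genes of the filtered count table. Their transcripts were counted in 149 single cells of the subventricular zone, where neural stem cells persist in the wall of the adult lateral ventricle, and set beside the autofluorescence of the same cells. All cells came from male C57BL/6J mice, and the labels name no treatment or transgene. For each experiment 8 animals were pooled, the tissue was dissociated with trypsin, and cells positive for GLAST, the product of the glutamate transporter gene Slc1a3, were held on a magnetic column and sorted into a plate. Ages are not given in the labels. Myelin was removed in 2 of the 3 experiments, which the labels do not name. The 3 plates are the replicates of 1 group, and the comparisons were made within plates, between cells of high and cells of low autofluorescence. The 3 plates held 43, 45 and 61 cells, with 297573, 413728 and 478504 estimated transcripts.

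Glycolysis splits glucose into pyruvate, and lactate dehydrogenase turns pyruvate and NADH into lactate and NAD or runs the other way. NADH and NADPH are among the molecules that make cells autofluoresce, beside flavins and lipofuscin. In brain tissue, Aldoc is a known marker of astrocytes, and subunits encoded by Ldha and Ldhb assemble into tetramers, of which those rich in the Ldha product are classically linked to lactate production and those rich in the Ldhb product to its use. GLUT1, the product of Slc2a1, carries glucose into the cell. Aldolase, encoded by Aldoa or Aldoc, splits the hexose, Tpi1 interconverts the triose phosphates, Gapdh makes NADH, Pgk1 makes ATP, Eno1 encodes an enolase and Pkm encodes the pyruvate kinase that yields pyruvate.

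All cells carry the label of neural stem cells, but the 5 clusters of the authors differed in their markers. Cluster 3, with 30 cells, had the highest level of 9 of 10 markers of quiescent stem cells or astrocytes, a list that includes Aldoc. Cluster 4, with 6 cells, had the highest level of 8 of 8 markers of activated stem cells or progenitors. Cluster 1, with 36 cells, had the highest level of 10 of 10 microglia markers and is called microglia-like here. Clusters 0 and 2, with 42 and 35 cells, held the highest level of 5 and 4 of the 9 detected oligodendrocyte lineage markers. Cluster 1 had the highest median autofluorescence, 4896 arbitrary units, against 1826 in cluster 3, 1367 in cluster 0, 1184 in cluster 4 and 1022 in cluster 2. Plate and cluster were entangled: of the cells of cluster 3, 25 were on plate 1, 1 on plate 2 and 4 on plate 3, and 5 of the 6 cells of cluster 4 were on plate 1.

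The letters before the start sites of both isoform pairs are shown because the comparison of isoforms turns on these 4 genes. They are the 250 bases before the most downstream start of each gene in RefSeq's table of GRCm38.p6, 5′ to 3′ on the gene's strand. Capitals mark the core of the hypoxia response element, ACGTG or GCGTG on either strand.
Aldoc at chr11:78323948-78324197, plus strand: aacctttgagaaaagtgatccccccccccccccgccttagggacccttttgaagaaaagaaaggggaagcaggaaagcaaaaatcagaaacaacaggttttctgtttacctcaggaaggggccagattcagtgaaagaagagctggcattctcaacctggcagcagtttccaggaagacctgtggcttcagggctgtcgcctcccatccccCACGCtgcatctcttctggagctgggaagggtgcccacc
Aldoa at chr7:126799179-126799428, minus strand: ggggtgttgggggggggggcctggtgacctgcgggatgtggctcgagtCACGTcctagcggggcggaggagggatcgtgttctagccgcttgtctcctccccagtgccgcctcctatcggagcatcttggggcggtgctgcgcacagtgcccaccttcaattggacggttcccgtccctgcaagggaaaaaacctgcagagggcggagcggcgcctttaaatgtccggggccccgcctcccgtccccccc
Ldhb at chr6:142507958-142508207, minus strand: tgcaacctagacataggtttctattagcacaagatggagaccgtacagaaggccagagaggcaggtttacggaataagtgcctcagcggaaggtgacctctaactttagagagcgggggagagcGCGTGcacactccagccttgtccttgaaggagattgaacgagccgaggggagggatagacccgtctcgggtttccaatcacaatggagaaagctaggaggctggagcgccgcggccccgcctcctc
Ldha at chr7:46846832-46847081, plus strand: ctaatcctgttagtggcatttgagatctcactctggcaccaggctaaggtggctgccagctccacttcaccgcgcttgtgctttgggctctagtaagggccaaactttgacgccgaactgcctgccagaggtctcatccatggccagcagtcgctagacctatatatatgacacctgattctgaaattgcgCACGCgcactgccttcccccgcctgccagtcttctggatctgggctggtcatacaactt
Each of the 4 windows held 1 match. Over all start sites in that table, 14 of 17 windows of the 10 genes held a match, against 38.6% of the 32851 windows of all genes. Some windows of Aldoa and of Eno1 overlap, so a match can be counted more than once. By gene, 9 of 10 held a match in any window, against 41.5% of 27025 genes. The 10 genes had more windows per gene, which raises that share. Windows were not matched for base composition, so neither contrast is a finding about these genes. The window before the other start of Ldha held 5 matches, the most among the 10 genes, and the window of Tpi1 held none. A match is a run of letters and not a measured binding site.

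Of the 10 genes, 9 had transcripts. Aldoc was the most abundant, with 919 estimated transcripts in 108 of 149 cells. Gapdh had 536 transcripts in 123 cells, Aldoa 485 in 117, Pkm 468 in 111, Ldhb 296 in 86 and Pgk1 244 in 81. Slc2a1 had 150 transcripts in 68 cells, Tpi1 107 in 60 and Ldha 89.0 in 46, so that Ldha was the scarcest gene with any transcript. Each molecule is counted once, at its 3′ end, so these counts were not divided by gene length.

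Eno1 was listed at 0 in every cell, which allows a level of up to 2.52 CPM over all cells by counting error alone, with CPM the estimated transcripts of a gene scaled to 1e6 in each sum. Eno1 lies at chr4:150236708-150248879 (GRCm38.p6). In the GENCODE M21 transcripts, 68.1% of the runs of 50 bases in the last 500 bases of Eno1 transcripts also occur in transcripts of Eno1b, a near-identical copy. Gm5506, an older RefSeq name of that copy, was listed with 3 transcripts in 3 cells. The part of shared sequence in the listed 0 was not tested, and Eno1 is left out of what follows. Gapdh shares 63.2% of such runs with other genes, Ldhb 29.2%, Pkm 19.3%, Ldha 12.8%, Tpi1 10.3%, Aldoa 9.22% and Pgk1 7.32%, while Aldoc and Slc2a1 share none, so counts of Gapdh and Ldhb carry the most uncertainty of this kind.

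Aldoc set cluster 3 apart. Its level there was 5022 CPM on plate 1 and 3508 CPM on plate 3, a mean of 4265 ± 1071 (SD, n = 2 plates). In cluster 1 it was 168, 81.5 and 755 CPM on plates 1, 2 and 3, in cluster 2 it was 370, 117 and 163 CPM, in cluster 0 it was 120 and 178 CPM on plates 2 and 3, and in cluster 4 it was 185 CPM on plate 1. The sums of cluster 3 lay above every other sum of at least 3 cells, and the other clusters overlapped. The authors drew the clusters from these expression values, so levels by cluster are given as a description without a test.

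Aldoa, the other aldolase, varied far less. It had 612 and 583 CPM in cluster 3 on plates 1 and 3, a mean of 598 ± 20.5 (SD, n = 2). Cluster 2 had 205, 485 and 535 CPM, cluster 1 had 404, 394 and 168 CPM, cluster 0 had 351 and 356 CPM, and cluster 4 had 86.9 CPM. Clusters 0, 1 and 2 overlapped, and only cluster 4, with 5 cells on 1 plate, lay below all of them.

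The aldolase isoforms therefore stood in different proportions. Aldoc made up 89.1% of aldolase identifiers in cluster 3 on plate 1 (exact 95% interval 86.6 to 91.3) and 85.7% on plate 3 (76.8 to 92.2). In cluster 0 it made up 25.6% on plate 2 (16.9 to 35.8) and 33.3% on plate 3 (25.2 to 42.3). In cluster 2 the share was 64.3%, 19.5% and 23.4% on plates 1, 2 and 3, and on plate 1 it rested on 14 identifiers of 3 cells, of which 1 held 7 of Aldoc, so that the share without that cell was 28.6%. In cluster 4 it was 68.0% (46.5 to 85.1). The intervals cover counting error only. Per cell, 29 of 30 cells of cluster 3 had more Aldoc than Aldoa, whereas 34 of 42 cells of cluster 0 and 25 of 35 cells of cluster 2 had more Aldoa.

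Cluster 1 differed between plates in its aldolase. Aldoc made up 29.4% and 17.1% of its aldolase identifiers on plates 1 and 2 but 81.8% on plate 3, where the count was 18 of Aldoc and 4 of Aldoa in 9 cells. The other 9 astrocyte markers together reached 5700, 3397 and 6345 CPM in cluster 1 on these plates, against 39990 and 42411 CPM in cluster 3 on plates 1 and 3. Of these 9 markers S100b alone was at 0 in cluster 1, and the others had transcripts there. Whether transcripts from other cells entered the Aldoc count of cluster 1 was not tested.

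Ldhb was high in clusters 3 and 1 and low in clusters 0 and 2. Cluster 3 had 872 and 942 CPM on plates 1 and 3, a mean of 907 ± 49.2 (SD, n = 2), and cluster 1 had 606, 652 and 419 CPM on the 3 plates, a mean of 559 ± 123 (SD, n = 3). Cluster 4 had 272 CPM, cluster 0 had 94.3 and 84.8 CPM on plates 2 and 3, and cluster 2 had 123, 58.7 and 10.2 CPM. The sums of clusters 3 and 1 did not overlap with those of clusters 0 and 2, while clusters 0 and 2 overlapped. Ldha was scarce throughout, with 168, 67.9 and 210 CPM in cluster 1, 199 and 44.8 CPM in cluster 3, 109 CPM in cluster 4, 82.2, 66.1 and 61.1 CPM in cluster 2 and 26.2 and 38.2 CPM in cluster 0. Cluster 0 lay lowest for Ldha on both of its plates, and the other clusters overlapped. This order rests on few transcripts. On plate 2, 1 cell of cluster 2 held 8 Ldha identifiers and its other 9 cells held 1, against 5 in cluster 0. On plate 3 the value of cluster 3 is 1 transcript.

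Ldhb outnumbered Ldha in every sum of at least 3 cells except those of cluster 2 on plates 2 and 3. Its share of lactate dehydrogenase identifiers was 81.4% (74.0 to 87.5) and 95.5% (77.2 to 99.9) in cluster 3, 78.3%, 90.6% and 66.7% in cluster 1, 78.3% and 69.0% in cluster 0 and 71.4% in cluster 4. In cluster 2 it was 60.0%, 47.1% and 14.3%, from 5, 17 and 14 identifiers. On plate 3 the interval of cluster 2, 1.78 to 42.8, lay below that of cluster 0, 49.2 to 84.7, while on plate 2 the intervals 23.0 to 72.2 and 56.3 to 92.5 overlapped. Single cells weighed heavily in these shares. On plate 3, 1 cell of cluster 2 held 5 of its Ldha identifiers, and without it the share was 22.2%, with an interval of 2.81 to 60.0 that overlaps that of cluster 0. On plate 2, 1 cell of cluster 2 held 8 Ldha identifiers and none of Ldhb, and the other 9 cells held 1 of Ldha and 8 of Ldhb, a share of 88.9% (51.8 to 99.7). Of 35 cells of cluster 2, 18 had no identifier of either gene.

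**Figure D1:**
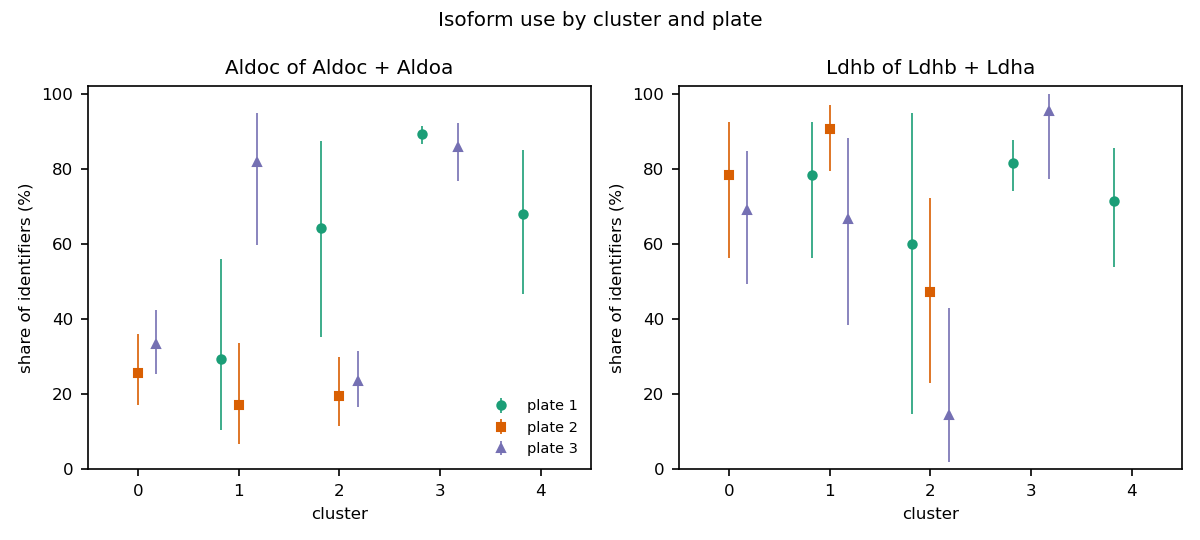
Share of Aldoc among aldolase identifiers (left) and of Ldhb among lactate dehydrogenase identifiers (right) in percent, by cluster, with 1 point for each plate and cluster of at least 3 cells. Bars are exact 95% binomial intervals, which cover counting error only. Both points of cluster 3 are high in each panel, at 85.7% or more for Aldoc and at 81.4% or more for Ldhb, and cluster 2 on plate 3 is lowest for Ldhb at 14.3%, a value that is 22.2% without 1 cell.

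The other enzymes and the glucose transporter followed no common order across clusters. Slc2a1 was highest on average in cluster 3, with 145 and 269 CPM, and cluster 0, with 147 and 178 CPM, overlapped with it. Cluster 2 had 41.1, 140 and 117 CPM and cluster 1 had 67.4, 54.3 and 126 CPM. In cluster 4 no transcript of Slc2a1 was counted, which allows up to 32.6 CPM there. Gapdh was highest in cluster 4, with 751 CPM, and in cluster 3, with 757 and 628 CPM, and both lay above the 288 to 482 CPM of the other clusters.

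Pkm had its highest level, 805 CPM, in cluster 4, against 179 to 545 CPM in all other sums. Pgk1 ranged from 67.4 CPM in cluster 1 on plate 1 to 535 CPM in cluster 2 on plate 1, with clusters overlapping. Tpi1 ranged from 36.6 CPM in cluster 0 on plate 2 to 184 CPM in cluster 3 on plate 1.

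**Figure D2:**
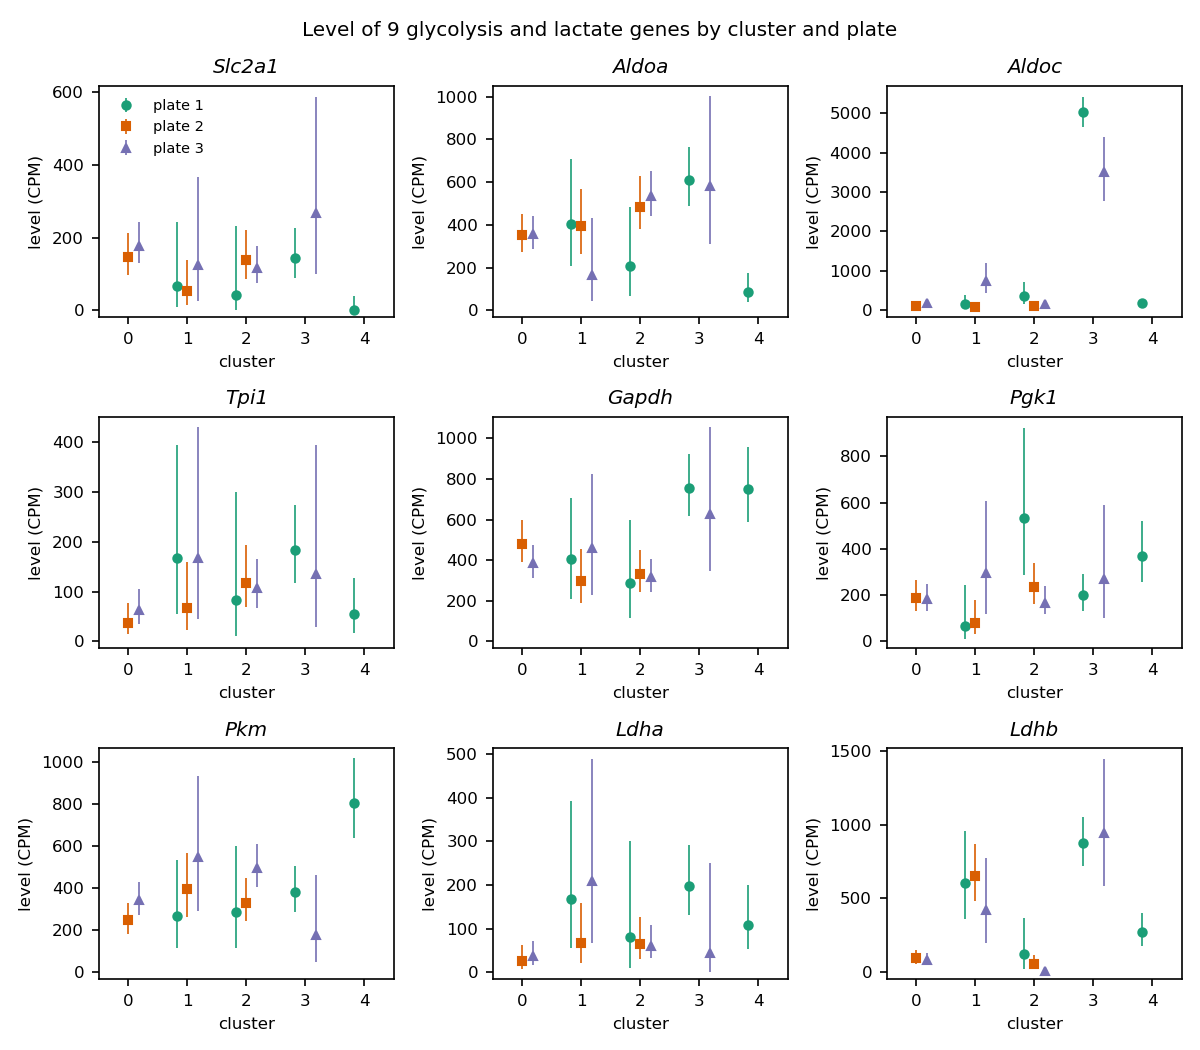
Level of 9 genes in CPM (estimated transcripts scaled to 1e6 per sum) by cluster, with 1 point for each plate and cluster of at least 3 cells. Bars are exact 95% Poisson intervals, which cover counting error only. Aldoc is at 3508 and 5022 CPM in cluster 3 and at no more than 755 CPM elsewhere, and Ldhb is high in clusters 1 and 3.

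Over the 11 sums of plate and cluster, the genes whose level was most like that of Aldoc included Pla2g7 and Slc1a2, with Pearson's r of 0.94 and 0.93 on log2(CPM + 1) among 2103 genes. Slc1a2 encodes a glutamate transporter of astrocytes and stands with Aldoc on the list of markers used above to describe cluster 3. The sums of cluster 3, where Aldoc is far higher than elsewhere, can weigh heavily on these r. They were not computed without cluster 3. Aldoa was most like 4930402H24Rik, mtNd4l and Sgcb (r = 0.83, 0.82 and 0.81). Ldhb was most like Snrnp70, Cst3 and Nptn (r = 0.90, 0.88 and 0.87), and Ldha was most like Ccnl2, Larp1 and Zfp871 (r = 0.81, 0.81 and 0.78). Between isoforms the likeness was weak, with r = 0.23 for Aldoa and Aldoc and 0.46 for Ldha and Ldhb. Among the 9 genes, Aldoa and Slc2a1 were the most alike pair, with r = 0.80. In cluster 4 on plate 1 Slc2a1 was at 0 CPM and Aldoa at its lowest, 86.9 CPM. That sum can weigh heavily on the log scale, and r without it was not computed. The 11 sums share libraries and depth, so r is given as a description.

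Autofluorescence was first compared over all cells, with the cells above the median of their plate called high and the others low. Ldhb had 696, 339 and 136 CPM in high cells on plates 1, 2 and 3, against 453, 50.9 and 83.0 CPM in low cells. High cells lay above low cells on all 3 plates, by a log2 difference of 1.28 (SE 0.41), which missed the threshold (edgeR quasi-likelihood test, adjusted p = 0.0944). Without 1 plate it ran from 0.71 without plate 2 to 1.72 without plate 1. Without plate 1 it passed (adjusted p = 0.000268, edgeR), in a fit with fewer residual degrees of freedom. It was 0.85 with each cell thinned to 2000 identifiers (adjusted p = 0.364, edgeR). With DESeq2 it was 1.34 (adjusted p = 0.139), and without the plate block it was 1.02 (adjusted p = 0.997, edgeR). In the main edgeR test over all cells 4.03% of the 3723 genes tested passed, 3.89% as higher and 0.134% as lower in high cells. There, 0 of the 9 genes followed here did. An unadjusted p under 0.05 was reached by Ldhb and Aldoc, against 413 of all genes tested. The median log2 difference of the 9 genes was 0.15, against -0.04 over all genes tested.

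High cells held more cells of cluster 1, in which Ldhb is high. Of the high cells, 8, 15 and 9 belonged to cluster 1 on plates 1, 2 and 3, against 1, 3 and 0 of the low cells. The 10 microglia markers together had 9915, 14054 and 4121 CPM in high cells, against 841, 2056 and 245 CPM in low cells. Without cluster 1, and with the cells split anew at the median of those left, Ldhb had 800, 124 and 87.7 CPM in high cells, against 374, 36.1 and 106 CPM in low cells. It was then higher in high cells on 2 of 3 plates, with a log2 difference of 0.92 (adjusted p = 0.714, edgeR). In the split of all cells, cluster 1 gave 22.4%, 32.5% and 9.56% of the transcripts of high cells on plates 1, 2 and 3. It gave 0.937%, 4.39% and 0% of those of low cells. The part of these shares in the Ldhb difference was not tested.

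Aldoc had 3438, 111 and 514 CPM in high cells, against 1523, 157 and 183 CPM in low cells. It was higher in high cells on plates 1 and 3 and lower on plate 2, with a log2 difference of 0.85 (SE 0.38, adjusted p = 0.375, edgeR). Without 1 plate the log2 difference ran from 0.40 without plate 3 to 1.37 without plate 2. On plate 1 cluster 3, in which Aldoc is high, gave 63.9% of the transcripts of high cells and 29.5% of those of low cells, and cluster 4 gave none of the high cells' transcripts and 53.4% of the low cells'. The part of this shift in the Aldoc difference was not tested. The log2 differences of the other 7 genes lay between -0.27 for Pkm and 0.39 for Ldha, with standard errors of 0.32 to 0.48. Gapdh was higher in high cells on 3 of 3 plates, with a log2 difference of 0.17 (SE 0.32).

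The comparison was then made within plate and cluster, with each cell called high or low against the median of its own cluster on its own plate, so that both sides held nearly the same number of cells of each cluster. The clusters' shares of the transcripts still differed between the sides. On plate 1 cluster 3 gave 55.9% of the transcripts of high cells and 38.0% of those of low cells, and cluster 4 gave 24.6% in high cells and 42.5% in low cells. On plate 2 cluster 2 gave 43.3% in high cells and 22.5% in low cells. The microglia markers together had 3409, 6397 and 1369 CPM in high cells on plates 1, 2 and 3, against 6637, 10058 and 3670 CPM in low cells. None of the 9 genes passed (edgeR, adjusted p of 0.915 or more), against 0.0879% of the 3412 genes tested. None had an unadjusted p under 0.05, against 241 of all genes tested. Log2 differences ranged from -0.26 for Slc2a1 to 0.25 for Gapdh, with a median of 0.00 and standard errors of 0.25 to 0.41. Over all genes tested the median was 0.01.

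Ldhb no longer leaned towards high cells. It had 622, 163 and 85.6 CPM in high cells, against 531, 212 and 150 CPM in low cells, so that it was higher on plate 1 and lower on plates 2 and 3, with a log2 difference of -0.20 (SE 0.29). Cluster 1, in which Ldhb is high, gave 7.58%, 15.5% and 3.06% of the transcripts of high cells, against 14.1%, 22.0% and 7.99% of those of low cells. The part of these shares in the Ldhb and Aldoc values was not tested. With each cell thinned to 2000 identifiers, so that cells carried equal weight, the log2 differences were -0.27 for Ldhb and 0.53 for Aldoc (adjusted p = 0.992 for both, edgeR). Aldoc had 3040, 72.2 and 384 CPM in high cells, against 1889, 162 and 311 CPM in low cells, with a log2 difference of 0.22 (SE 0.28). Aldoa had 454, 303 and 470 CPM in high cells, against 299, 530 and 370 CPM in low cells, with plates going both ways and a log2 difference of 0.07 (SE 0.27). For Ldha the values were 196, 31.6 and 51.4 CPM in high cells, against 112, 67.0 and 64.3 CPM in low cells. Only plate 1 was higher in high cells, and the log2 difference was -0.02 (SE 0.41). Over all clusters, high cells had medians of 6078, 7720 and 8260 transcripts per cell on plates 1, 2 and 3, against 4069, 7669 and 5425 in low cells, which is deeper on plates 1 and 3 and nearly equal on plate 2. In cluster 1 the high cells together held fewer transcripts on each plate, 10843, 34230 and 8944 in 4, 9 and 4 cells, against 18836, 39409 and 14893 in 5, 9 and 5 low cells.

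**Figure D3:**
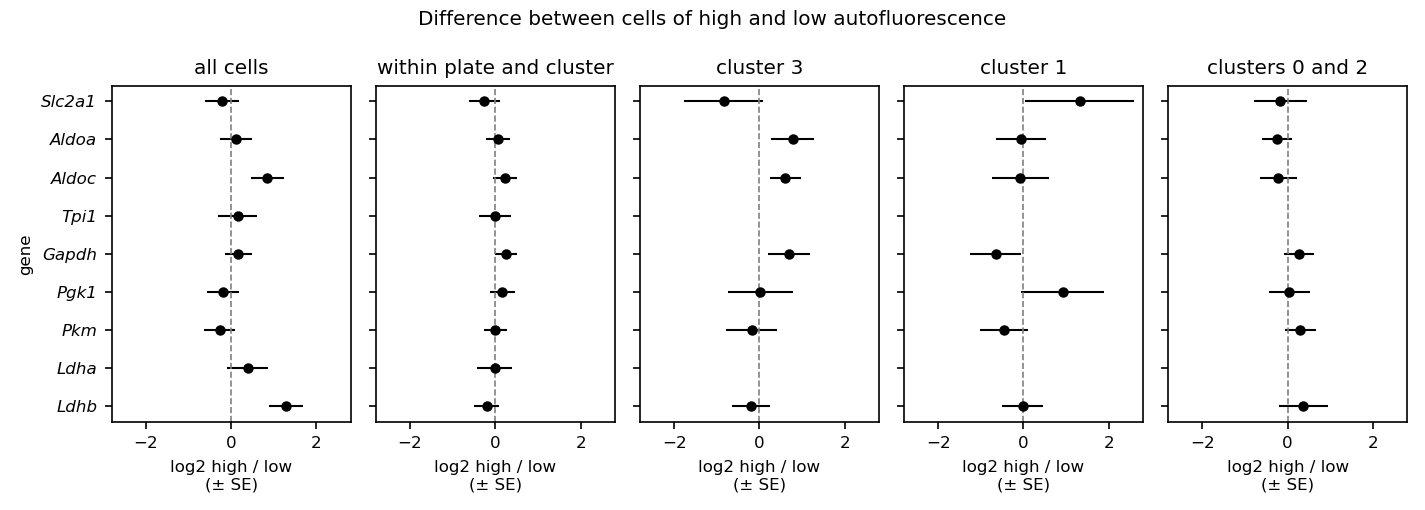
Log2 difference between cells of high and low autofluorescence (high over low) with its standard error for each gene, over all cells, within plate and cluster, and in 3 cluster groups from a joint fit, in which Ldha and Tpi1 were too low to be tested. Ldhb stands at 1.28 over all cells and at -0.20 within plate and cluster.

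Once cells were split within their cluster, the difference in isoform use between high and low cells was smaller than its spread between plates. The Aldoc share of aldolase was 87.0%, 19.3% and 45.0% in high cells on plates 1, 2 and 3, against 86.3%, 23.4% and 45.7% in low cells. It averaged 50.4% ± 34.2 in high cells and 51.8% ± 31.9 in low cells (SD, n = 3 plates), a difference of -1.37 ± 2.46 percentage points (exact two-sided sign-flip permutation test, p = 0.5). The Ldhb share of lactate dehydrogenase was 76.1%, 83.7% and 62.5% in high cells, against 82.6%, 76.0% and 70.0% in low cells. It averaged 74.1% ± 10.7 in high cells and 76.2% ± 6.28 in low cells, a difference of -2.09 ± 8.51 percentage points (same exact test, p = 1). With 3 plates this test cannot go below 0.25. These shares come from summed transcripts, and as a mean over cells the Ldhb difference was larger in size and of the same sign, as given below.

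In cluster 3, the cells with quiescent stem cell or astrocyte markers, the split could be made on plates 1 and 3. Aldoa had 701 and 663 CPM in high cells, against 473 and 458 CPM in low cells. The sides did not overlap, which also held for Gapdh and, in the other direction, for Ldhb, while the rest of the 9 genes overlapped. With 2 plates, sides can easily part without any real difference. The share of all genes whose sides part was not computed, so this is no finding. The log2 difference of Aldoa was 0.78 (SE 0.51, adjusted p = 0.924, edgeR joint fit). Gapdh had 863 and 663 CPM in high cells, against 591 and 573 CPM in low cells, with a log2 difference of 0.69 (SE 0.48, adjusted p = 0.924, edgeR). Aldoc had 5290 and 4067 CPM in high cells, against 4600 and 2639 CPM in low cells, with a log2 difference of 0.61 (SE 0.36, adjusted p = 0.924, edgeR). Ldhb went the other way, with 826 and 663 CPM in high cells, against 945 and 1375 CPM in low cells, and a log2 difference of -0.19 (SE 0.45). On plate 3 these values rest on 2 high and 2 low cells.

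In the joint fit 7 of the 9 genes could be tested, and none passed in any cluster group, as was the case for all 1477 genes tested (0% called in cluster 1, in clusters 0 and 2, and in cluster 3). By edgeR, an unadjusted p under 0.05 was reached by 73 of the 1477 genes in cluster 3, 50 in cluster 1 and 23 in clusters 0 and 2, and by none of the 7 in any of them. In cluster 1 the log2 differences ran from -0.65 (SE 0.59) for Gapdh to 1.32 (SE 1.28) for Slc2a1, and each sum there held at most 34 transcripts of any of these genes. In clusters 0 and 2, on plates 2 and 3, they ran from -0.25 (SE 0.35) for Aldoa to 0.37 (SE 0.58) for Ldhb. Aldoa there had 272 and 475 CPM in high cells, against 587 and 375 CPM in low cells, so the plates went in opposite directions.

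The difference between cluster groups was tested itself. For Aldoa the effect in cluster 3 minus that in clusters 0 and 2 was 1.03 on the log2 scale (SE 0.62, adjusted p = 1, edgeR). For Aldoc it was 0.82 (SE 0.57, adjusted p = 1, edgeR). Cluster 1 minus clusters 0 and 2 gave -0.93 (SE 0.69) for Gapdh and 1.49 (SE 1.43) for Slc2a1. Of the 1477 genes, 0% passed in either difference (edgeR), and an unadjusted p under 0.05 was reached by 59 genes for cluster 3 and 40 for cluster 1, with none of the 7 among them.

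Cell by cell, autofluorescence was ranked against the level of each gene within the 8 groups of 1 plate and 1 cluster with at least 8 cells, 134 cells in all. The mean of Spearman's rho over groups, weighted by cells, ran from -0.01 for Slc2a1 to 0.13 for Gapdh. It was 0.04 for Aldoc, 0.02 for Aldoa, 0.06 for Ldha and 0.04 for Ldhb. Each of the 9 genes had groups on both sides of 0: Aldoc ran from -0.33 to 0.69 and Ldhb from -0.32 to 0.51. The 9 genes summed gave -0.05. Total transcripts per cell gave 0.33, above 0 in 7 of 8 groups, a higher mean than that of any of the 9 genes. In cluster 1 rho for total transcripts was 0.033, 0.005 and -0.38 on plates 1, 2 and 3. It was 0.25 to 0.79 in the groups of the other clusters. With many cells at 0 a weak rho is no finding.

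**Figure D4:**
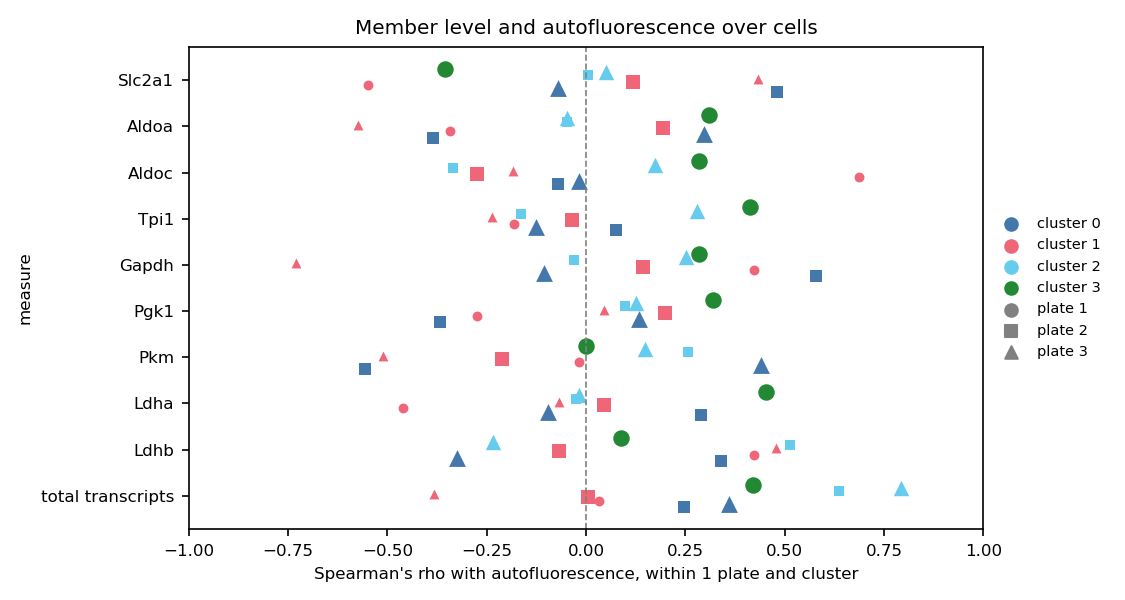
Spearman's rho between autofluorescence and the level of each gene (share of a cell's transcripts), or the total transcripts of the cell, within 1 plate and cluster. Each point is 1 of 8 groups of at least 8 cells, larger with more cells. Points of each gene lie on both sides of 0. Total transcripts lie above 0 in 7 of 8 groups, but near 0 or below it in cluster 1.

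The 7 other lists held 72 genes of glucose metabolism and of the hypoxia response. Over all cells 26 of them could be tested, and 1 passed, a share near the 4.03% of all genes tested. It was Vegfa, a target of hypoxia signalling that encodes an angiogenic factor. Vegfa had 472, 45.5 and 112 CPM in high cells, against 145, 27.8 and 13.1 CPM in low cells, with a log2 difference of 1.82 (SE 0.46, adjusted p = 0.0228, edgeR). It was higher in high cells on 3 of 3 plates, but its level was 611 CPM in cluster 3 and at most 79.4 CPM in any other cluster. Without cluster 1 it passed, with a log2 difference of 2.28 (adjusted p = 0.0389, edgeR), but that split did not even out cluster 3. The 9 astrocyte markers other than Aldoc then had 36405.5, 2747 and 5255 CPM in high cells on plates 1, 2 and 3. In low cells they had 10493, 2080 and 4323 CPM. The part of cluster 3 in the Vegfa difference was not tested. Over all cells, the log2 difference of Vegfa was 1.86 with DESeq2 (adjusted p = 0.0634) and 1.82 without the plate block (adjusted p = 0.997, edgeR). It was 1.91, 2.21 and 1.33 without plates 1, 2 and 3 (adjusted p of 0.0759 to 0.328, edgeR). None of these passed. Split within plate and cluster, where it was too low to be tested, Vegfa had 406, 18.1 and 61.7 CPM in high cells, against 194, 22.3 and 69.8 CPM in low cells, higher on plate 1 alone. None of the other 8 hypoxia response genes tested passed, and 0 of 2 glycolytic enzymes, 2 lactate transport genes, 7 genes of pyruvate entry, 3 of the pentose phosphate pathway and 3 of glycogen did. No other glucose transporter had enough transcripts to be tested.

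Levels by cluster of genes of lactate and glucose handling beyond the 10 are given as a description. Slc2a5, Hk2 and Pygm were named because they passed the low-count filter of the joint fit. That filter works by cluster group and side, so a gene high in 1 cluster group can pass through it alone. The contrast of these genes between clusters follows in part from that choice and is no finding. Slc2a5, a fructose transporter typical of microglia, had 377 CPM in cluster 1 and at most 6.36 CPM elsewhere, and Hk2, a hexokinase, had 244 CPM in cluster 1 and at most 9.92 CPM elsewhere. Bsg, the chaperone of lactate transporters, had 646 CPM in cluster 1, 376 in cluster 3 and 159 to 191 in the others. Slc16a1, a lactate transporter, was highest in cluster 0, at 161 CPM. Pygb and Pygm, glycogen phosphorylases, had 350 and 197 CPM in cluster 3 and at most 31.4 and 23.6 CPM elsewhere.

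Within plate and cluster 25 of these genes could be tested and none passed (edgeR). Gpi1, an isomerase early in glycolysis, was the only one with an unadjusted p under 0.05, with a log2 difference of 0.71 (SE 0.34, adjusted p = 0.692, edgeR). It had 384, 149 and 151 CPM in high cells on plates 1, 2 and 3, against 89.7, 151 and 139 CPM in low cells, so that the difference rests on plate 1. Bsg stood at -0.50 (SE 0.31), Slc16a1 at -0.05 (SE 0.40), Mpc1, a subunit of the mitochondrial pyruvate carrier, at 0.24 (SE 0.30), and Taldo1, transaldolase, at 0.33 (SE 0.26).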

How the data were processed

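SORT-seq plates hold 1 cell per well, with a barcode per well and a molecular identifier per transcript. The deposited table holds estimated counts of transcripts, made by the authors from identifiers. Undoing their correction for colliding identifiers gave whole numbers for 100% of 349688 values above 0 (tolerance 1e-06). Per the submitters' processing notes, Seurat 4.1.1, BWA 0.7.15 and R 4.2.0 were used, and the builds hg19 and mm10 appear, all without a role. No source used here gives the annotation. Autofluorescence is an intensity in arbitrary units, as deposited by the authors, with no stated scaling. Clusters are the authors'. Plates were matched to samples by the last digit of the library name; that each plate is 1 experiment is read from the series design. In the table per cell, 14 value columns were not used. No doublet caller was run.

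Transcripts were summed per plate and side, rounded, and fitted with edgeR 4.0.16 in R 4.3.3: TMM, a low-count filter by group, a quasi-likelihood F test with plate as block, and Benjamini-Hochberg adjustment over all genes tested at 0.05. Residual degrees of freedom were 2 for each fit over plates and 4 for the joint fit. P-values measure the spread left between sums once plate, or plate by cluster group in the joint fit, is in the model. edgeR draws each gene's spread towards that of all genes tested, so p-values do not rest on these degrees of freedom alone. The joint fit needed at least 2 cells a side, which left out clusters 0 and 2 on plate 1. DESeq2 1.42.0 was an alternative, and fits were tested on simulated data. CPM per plate and cluster needed at least 3 cells. Total transcripts ranged from 1208 to 37442 per cell. Named are all 10 genes, every gene of the other lists that passed, the 2 most abundant tested genes of each list, and the 3 genes most like each isoform by r, of which 1 is not reported here. Of the genes of other lists whose cluster levels are given, Pygm, Hk2 and Slc2a5 were named through the joint fit. Members and lists were chosen with earlier results of these data known.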

Additional observations from a re-analysis of the deposited data

How the results depend on the processing

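The count of genes passing over all cells, 150 of 3723 tested, was 307 of 13898 with no filter on low counts, 238 of 4686 with the filter on the design with plate, 61 of 635 with cells thinned to 2000 identifiers (8 shallower cells left out), 11 of 2913 without cluster 1, 0 of 3723 with no replicate block (207 at an unadjusted p under 0.05) and 39 to 180 without 1 plate, lowest without plate 2. Within plate and cluster, 3 became 20 with RLE size factors, 5 with the filter on the design with plate, 0 with no replicate block, with DESeq2 and with thinned cells (40, 74 and 21 at an unadjusted p under 0.05), and 0 to 23 without 1 plate. Without 1 plate the count was 0 to 1 in cluster 1, 0 to 1 in cluster 3 and 0 to 2 for cluster 3 minus clusters 0 and 2. The filter on the design and the leaving out of cluster 1 or of the cell richest in a pair were chosen after seeing the data. Of the 9 genes, only Ldhb over all cells passed under any setting: with no filter (adjusted p = 0.0445), with the filter on the design (0.0457) and without plate 1 (0.000268), all by edgeR.

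Signs of uncalled log2 differences turned as follows. Over all cells Aldoa was -0.43 with thinned cells and Pgk1 0.069 without cluster 1. Within plate and cluster, thinned cells gave -0.19 for Aldoa, -0.046 for Gapdh and -0.16 for Pkm. No replicate block gave -0.00035 for Pkm, 0.21 for Ldha, 0.015 for Ldhb and 0.13 for Tpi1, no filter gave 0.048 for Ldha and 0.052 for Tpi1, the filter on the design gave -0.0037 for Pkm and RLE gave 0.0015 for Tpi1. In cluster 1 Ldhb was 0.056 with no replicate block and 0.47 with DESeq2. In clusters 0 and 2 Pgk1 was -0.0032 with RLE, -0.016 with no filter and -0.0023 with DESeq2. In cluster 3 Pgk1 was -0.10 with RLE, -0.00039 with no replicate block and -0.37 with DESeq2. Cluster 1 minus clusters 0 and 2 gave -0.0042 for Aldoa with DESeq2. The difference in Aldoc share was 0.258 points as a mean over cells. For the Ldhb share that mean kept its sign but gave -14.0 points, against -2.09 from sums, so its size depends on how cells are weighted.

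Without 1 plate in turn, log2 differences over all cells ran from -0.33 to 0.55 for Aldoa, -0.70 to 0.21 for Pgk1, -0.68 to 0.11 for Pkm, -0.18 to 0.90 for Ldha, -0.34 to 0.62 for Tpi1 and -0.52 to 0.0076 for Slc2a1. Within plate and cluster they ran from -0.22 to 0.54 for Aldoa, -0.18 to 0.58 for Aldoc, -0.28 to 0.19 for Pkm, -0.66 to 0.37 for Ldha and -0.52 to 0.48 for Tpi1. In cluster 1 they ran from -1.26 to 0.13 for Aldoa, -0.43 to 0.50 for Aldoc and -0.40 to 1.15 for Ldhb. In clusters 0 and 2 they ran from -1.03 to 0.39 for Aldoa, -1.02 to 0.29 for Aldoc, -0.43 to -0.0067 for Pgk1, -0.16 to 0.60 for Pkm and -1.17 to 2.04 for Ldhb. In cluster 3 they ran from -1.08 to 0.45 for Pgk1, -0.35 to 1.46 for Pkm and -1.56 to 0.89 for Slc2a1. Cluster 1 minus clusters 0 and 2 ran from -1.65 to 1.16 for Aldoa and -0.13 to 0.59 for Aldoc, and the difference in Ldhb share from -6.99 to 0.621 points. The cause was not tested.

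Limits: the cells of 1 plate share a library, so 3 plates carry all tests, and cluster 4 was described from 1 plate. In cluster 1 few transcripts stand behind each gene. Cluster 3 was compared on 2 plates.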
